A study of Homo sapiens with 12 samples.

Results

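The p53 target genes described here are 30 genes listed as raised in transcription by the tumour suppressor p53, which was not tested in these cells. They were chosen by symbol from a list of such genes and are 30 of the 38551 genes of the deposited count table. By role they fall into 4 genes of the feedback on p53, 7 of cell cycle and growth arrest, 11 of death receptors and apoptosis, 4 of DNA repair and nucleotide supply, and 4 of metabolism and survival. RNA sequencing was done on HEL cells, a human erythroleukemia line with mutated JAK2 kinase, which here also expressed the Cas9 nuclease and grew in medium with blasticidin. Cells of the 3 groups received lentiviral guide RNAs against luciferase (control, KDM4C wildtype) or against KDM4C (sg2 or sg3), with 11 days of selection in puromycin (1.5 µg/mL). KDM4C encodes a demethylase of histone H3 lysines, and the question was how its inactivation altered gene expression. Each group had 4 libraries, and the column names of the table give the vehicle DMSO for all 12. The study's methods name the 4 replicates at the last step, the treatment of transduced cells, with no word on whether transductions were separate, so the spread behind the p-values may be only technical, and each KDM4C group rests on 1 guide.

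p53 is a transcription factor that binds DNA as a tetramer and raises the transcription of its targets when DNA is damaged or growth is disturbed. The targets halt the cell cycle, repair DNA, adjust metabolism or start apoptosis, and some of them, such as MDM2, switch p53 off again in a feedback loop. Many of these genes also respond to other factors, for example FOXO proteins at CCNG2 and stress kinases at GADD45A, so their mRNA is not a measure of p53 alone. The p53 protein was not measured in these data.

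The DNA that p53 recognises, the p53 response element, is 2 adjacent copies of a 10-base repeat, each with a 4-base core. Matches to it were searched within 2000 bases on either side of RefSeq transcription starts on the human genome (hg38), with at most 2 mismatches in 20 bases, no spacer, and the C and G of each core in place. The element reads alike on both strands, so 1 pass covered both. Entries existed for 25 of the 30 members, and 10 of these (40%) had a match, with 11 matches in all. Over all genes with an entry, 999 of 27305 (3.66%) had one. Members without an entry were GADD45A, TNFRSF10B, TP53INP1, PHLDA3 and RRM2B. The matches are shown for the 6 members with a match that changed in the KDM4C knockout and for ZMAT3, whose match had 0 mismatches, 5′ to 3′ on the strand of the gene, with the core of each repeat in capitals.
MDM2: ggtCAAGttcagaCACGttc
CCNG1: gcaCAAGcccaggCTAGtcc
BTG2: acgCATGttcaggCATGcat
FAS: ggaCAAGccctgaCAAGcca
AEN: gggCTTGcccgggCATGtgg
DDB2: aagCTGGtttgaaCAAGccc
ZMAT3: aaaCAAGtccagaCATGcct

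The MDM2 match (chr12:68808923-68808942, plus strand) lay in an intron, with its centre 85 bases before the nearest start (-85), and had 2 mismatches. In CCNG1 (chr5:163437926-163437945, plus strand) it lay in an intron at position 340 and had 1 mismatch. The BTG2 match (chr1:203303642-203303661, plus strand) lay outside the canonical transcript at position -1868, with 2 mismatches. The FAS match (chr10:88991309-88991328, plus strand) was intronic at position -113, and that of AEN (chr15:88621306-88621325, plus strand) lay just outside the canonical transcript at position -25, both with 2 mismatches. In DDB2 (chr11:47214969-47214988, plus strand) the match lay in an exon at position 4, with 1 mismatch. The ZMAT3 match (chr3:179070188-179070207, minus strand) lay in an intron at position -856. GADD45B and SPATA18 had 1 further match each and EDA2R had 2. A match is a description of the letters and not a bound site, since no binding was measured.

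**Figure D1:**
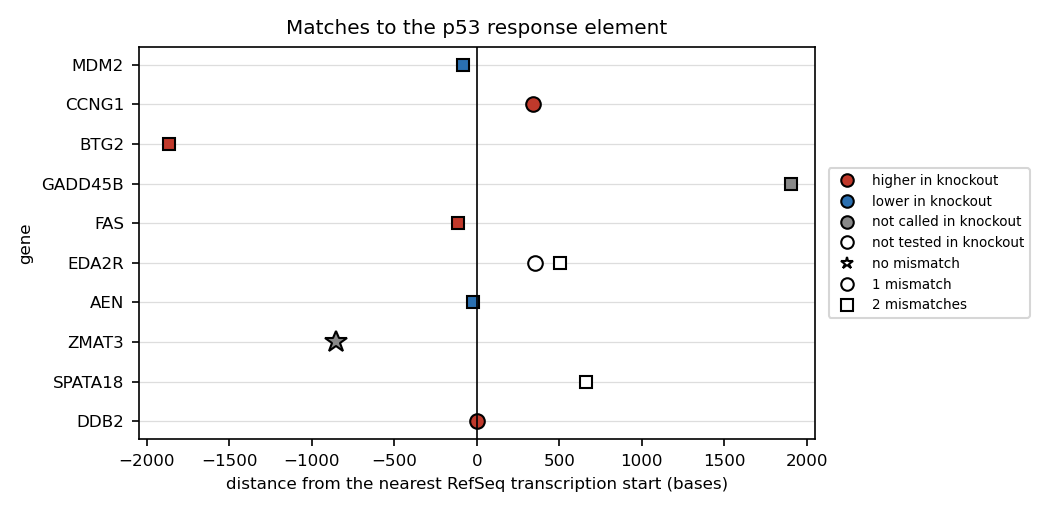
Position of each match to the p53 response element (horizontal axis, bases from the centre of the match to the nearest RefSeq transcription start) in the 10 members that had one; colour gives the call in the knockout average and marker shape the number of mismatches. Of the 8 of these members that were tested, CCNG1, BTG2, FAS and DDB2 were higher, MDM2 and AEN were lower, and GADD45B and ZMAT3 were not called. Among all genes tested, 21.6% were higher and 22.3% lower, and a link between a match and a change was not tested.

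Library totals ranged from 10031809 to 78966125 counts, a 7.87-fold span, with control library 2 the deepest. KDM4C mRNA, in CPM (counts scaled to a common library size with TMM), was 69.4 ± 1.72 in control (SD, n = 4), 47.1 ± 6.62 with sg2 (n = 4) and 61.7 ± 1.86 with sg3 (n = 4), and every one of the 8 knockout libraries was below the lowest control. All 18 erythroid and megakaryocytic markers exceeded 1 CPM. Of 22 markers of other cell types, 8 exceeded 1 CPM (CD2, CD79A, NKG7, CSF1R, PECAM1, CDH5, KRT8 and KRT18), and ELANE and COL1A2 were at 0 in all libraries. The sum of these 22 was 200 to 203 CPM in control, 220 to 232 with sg2 and 232 to 247 with sg3, so it was higher in all 8 knockout libraries. Of the 9 that were tested, 7 rose and 1 fell in the mean of sg2 and sg3 against control, with a median of 0.43 on the log2 scale, and their part in the results below was not tested. In bulk RNA, fewer cells of a type and less RNA per cell cannot be told apart.

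Levels of the members differed widely. Per kilobase of exon, GADD45A (79.0 CPM per kilobase in control) was the most abundant, followed by CCNG1 (32.4), TRIAP1 (29.8) and BTG2 (28.8). The level of TRIAP1 in control lay close to that of BTG2. Most members lay between 1.73 (GADD45B) and 17.1 (FDXR) per kilobase, TP53INP1 at 0.995 and the death receptor FAS at 0.369. The lowest were the receptor gene TNFRSF10B (0.0805), PHLDA3 (0.00994), EDA2R (0.0045) and SPATA18, which had no count.

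**Figure D2:**
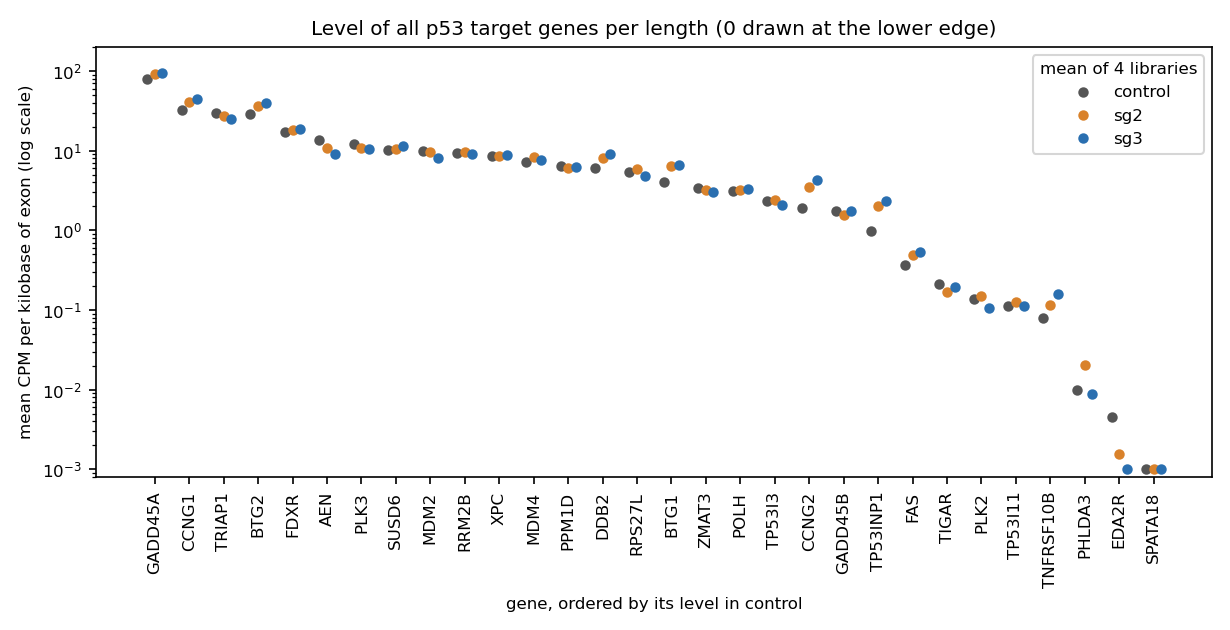
Mean level of all 30 members per kilobase of exon (vertical axis, log scale, n = 4 libraries per point), ordered by control. GADD45A stands at the top with 79.0 CPM per kilobase in control, and TNFRSF10B, PHLDA3, EDA2R and SPATA18 stand at the bottom.

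The members did not move as 1 block after KDM4C inactivation. Of the 25 that passed the filter on low counts, 8 rose in the knockout average (both guides against control), 4 fell and 13 were not called (edgeR's quasi-likelihood test, Benjamini-Hochberg adjusted p under 0.05 over 13996 genes). TP53INP1, CCNG2, BTG1, FAS, DDB2, BTG2, CCNG1 and GADD45A rose, and AEN, PLK3, TRIAP1 and MDM2 fell. The 48% called stood beside 43.9% of all genes tested, the 32% that rose beside 21.6%, and the 16% that fell beside 22.3%, so the share of members called was near that of any gene. The median log2 fold change was 0.02 over the members and -0.0046 over all genes. Changes of at least 0.5 on the log2 scale with a call were found for 4 members (16%), against 8.68% of all genes. In 7 members (28%, against 23.3% of all genes) the 8 knockout libraries all lay beyond the 4 control libraries, 6 above (TP53INP1, CCNG2, BTG1, FAS, BTG2 and CCNG1) and 1 below (AEN).

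**Figure D3:**
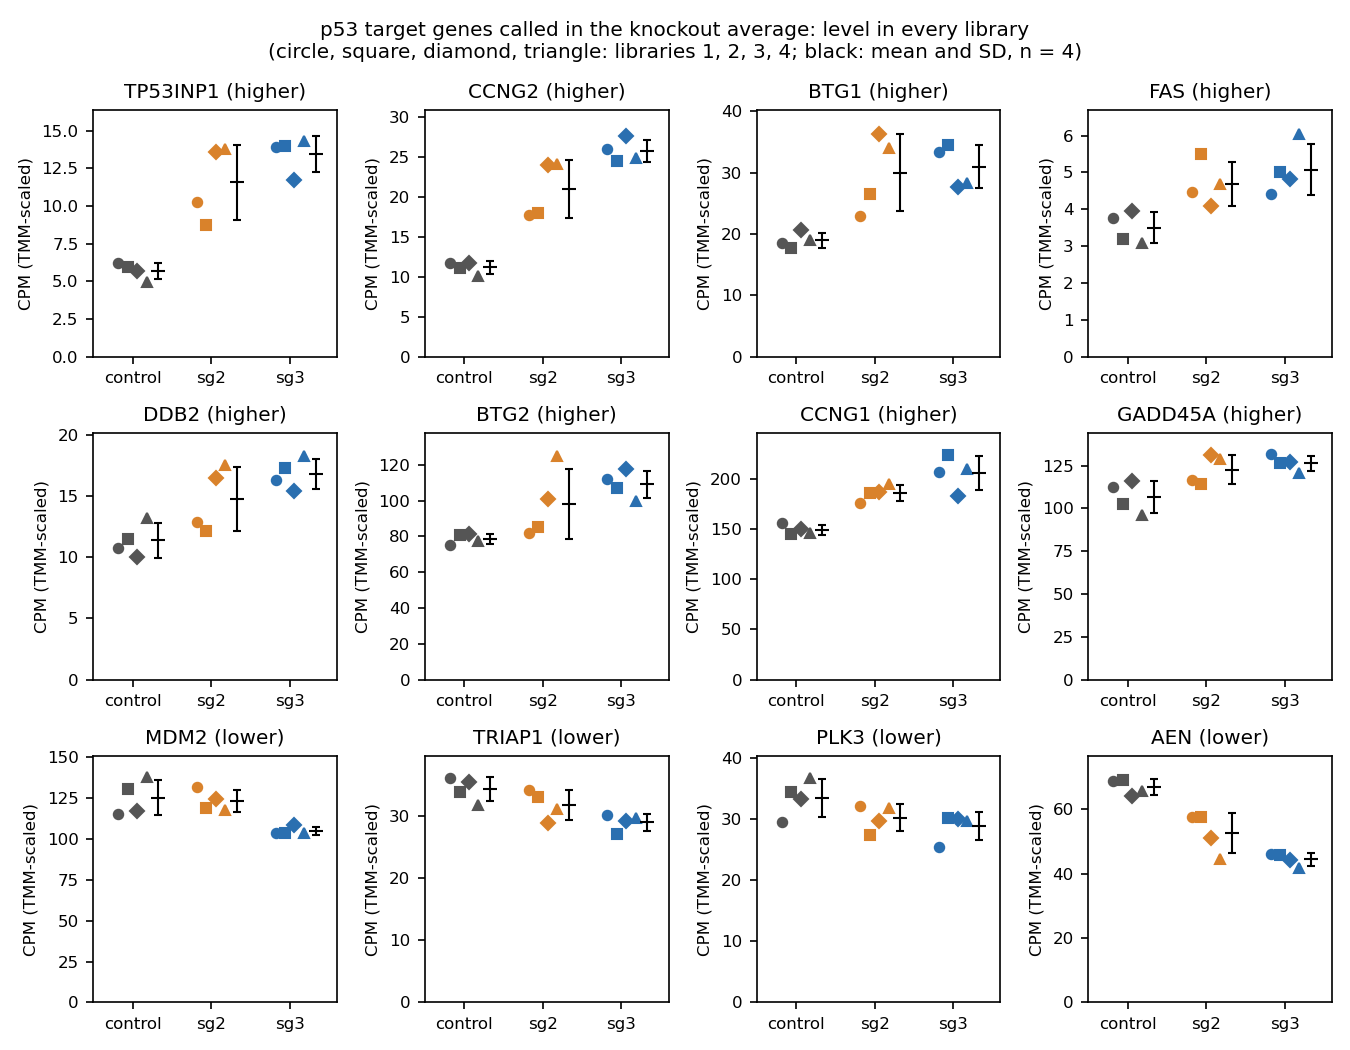
Level of each of the 12 members called in the knockout average, in CPM (vertical axis, from 0), in every library of the 3 groups; points are libraries, and black bars are the mean and SD (n = 4). TP53INP1 and CCNG2 are about 2-fold above control, while the lower levels of MDM2, TRIAP1 and PLK3 overlap control.

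Among the feedback genes, CCNG1 was higher and MDM2 lower, while MDM4 and PPM1D were not called (50% called, against 43.9% of all genes). CCNG1 encodes cyclin G1, which recruits a phosphatase that acts on MDM2. It measured 156, 145, 150 and 146 CPM in control libraries 1 to 4, 176, 186, 187 and 195 CPM with sg2 and 207, 224, 183 and 210 CPM with sg3. Every knockout library lay above every control library. The log2 fold change was 0.39 ± 0.05 (SE) in the knockout average (adjusted p = 5.9e-06), 0.32 with sg2 (0.000336) and 0.46 with sg3 (4.31e-06). About 33.1% of the CCNG1 exon length overlaps NUDCD2 on the opposite strand, and the stated counting options name no strand. NUDCD2 itself was not called (45.5, 50.8 and 45.7 CPM in control, sg2 and sg3, log2 fold change 0.09, adjusted p = 0.296).

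MDM2 encodes the ubiquitin ligase that marks p53 for degradation and is among the targets used to read p53 activity. Control libraries 1 to 4 had 115, 131, 117 and 138 CPM, sg2 libraries 132, 119, 124 and 118 CPM, and sg3 libraries 103, 104, 109 and 104 CPM. All 4 sg3 libraries lay below every control and every sg2 library, whereas sg2 lay within the control range. MDM2 fell with sg3 by 0.25 ± 0.05 on the log2 scale (adjusted p = 0.00121) and was not called with sg2 (log2 fold change -0.02, 95% interval -0.14 to 0.09, adjusted p = 0.784). In the knockout average the log2 fold change was -0.14 (adjusted p = 0.0226). Leaving out control library 2 (adjusted p = 0.0999) or 4 (0.114), the controls with the higher levels, ended this call.

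MDM4 encodes the relative of MDM2 that blocks the activation domain of p53. Its levels were 67.7, 80.4, 69.0 and 86.5 CPM in control, 87.8, 76.6, 98.0 and 88.7 CPM with sg2 and 82.4, 77.5, 82.4 and 76.0 CPM with sg3. The groups overlapped, with control libraries 2 and 4 again above 1 and 3. The log2 fold change was 0.14 in the knockout average (95% interval -0.0044 to 0.28, adjusted p = 0.108) and 0.20 with sg2 (adjusted p = 0.0608). The average was called in 4 of 19 alternatives, which were no filter on low counts (adjusted p = 0.047) and the fits without control library 4 (0.025), sg2 library 2 (0.0373), or sg2 libraries 1 and 2 (0.0293). The sg2 value was called in 5 of 20, the same 4 settings (adjusted p = 0.0119, 0.0173, 0.0165 and 0.0175) and DESeq2 (0.0418). PPM1D, the phosphatase WIP1 that removes activating phosphates from p53, measured 31.1 ± 2.49, 30.03 ± 1.25 and 30.5 ± 1.61 CPM in control, sg2 and sg3 (n = 4 each), with a log2 fold change of -0.04 (95% interval -0.15 to 0.07).

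The genes of cell cycle and growth arrest had 4 members higher and 1 lower of 6 tested, beside 21.6% and 22.3% of all genes. CCNG2 encodes cyclin G2, an unconventional cyclin that is high in resting cells. It had 11.8, 11.1, 11.8 and 10.1 CPM in control libraries 1 to 4, 17.7, 17.9, 24.0 and 24.2 CPM with sg2 and 26.0, 24.6, 27.7 and 24.8 CPM with sg3. The 3 groups did not overlap, and sg2 libraries 3 and 4 came close to the sg3 libraries while 1 and 2 stood between them and control. CCNG2 rose 2.05-fold in the knockout average (log2 fold change 1.04 ± 0.09, adjusted p = 3.13e-07), with 0.88 for sg2 and 1.20 for sg3 on the log2 scale.

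BTG1 and BTG2 encode related antiproliferative proteins that bind the CCR4-NOT deadenylase. BTG1 measured 18.5, 17.7, 20.6 and 19.1 CPM in control, 22.9, 26.6, 36.3 and 34.1 CPM with sg2 and 33.4, 34.5, 27.6 and 28.3 CPM with sg3. All knockout libraries exceeded all control libraries, and BTG1 rose 1.61-fold (log2 fold change 0.68 ± 0.10, adjusted p = 5.56e-05), with 0.65 for sg2 and 0.72 for sg3.

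BTG2 measured 75.4, 80.7, 81.3 and 77.1 CPM in control, 82.0, 85.5, 101 and 125 CPM with sg2 and 112, 107, 118 and 100 CPM with sg3. It rose in the average (log2 fold change 0.39 ± 0.08, adjusted p = 0.00116), and sg2 libraries 1 and 2 were only just above control. The sg2 log2 fold change of 0.31 (adjusted p = 0.022) lost its call without control library 1 (adjusted p = 0.0519), sg2 library 3 (0.0542) or sg2 library 4 (0.0666, log2 fold change 0.18). With sg3 it was 0.47 (adjusted p = 0.000723).

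GADD45A, a stress sensor that binds PCNA and the p21 protein, had 113, 102, 116 and 95.9 CPM in control, 116, 114, 131 and 129 CPM with sg2 and 131, 126, 127 and 120 CPM with sg3. The sg3 libraries lay above all controls, sg2 library 2 lay within the control range, and sg2 library 1 was only just above it. The rise was small, at 0.22 ± 0.05 on the log2 scale (adjusted p = 0.00253). The sg2 call (0.19, adjusted p = 0.0211) was lost without control library 2 (adjusted p = 0.0725) or 4 (0.0579), or sg2 library 3 (0.0696) or 4 (0.0675). Its relative GADD45B measured 2.78 ± 0.708, 2.54 ± 0.537 and 2.84 ± 0.354 CPM (n = 4 each), which differed by less than the spread between libraries.

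PLK3, a polo-like kinase of the stress response, had 29.4, 34.4, 33.2 and 36.7 CPM in control, 32.1, 27.4, 29.6 and 31.8 CPM with sg2 and 25.4, 30.2, 29.99 and 29.6 CPM with sg3. The groups overlapped at control library 1. The log2 fold change of -0.18 (adjusted p = 0.031) lost its call in 7 of 19 alternatives. These were the fits without control library 2 (adjusted p = 0.106), 3 (0.0561) or 4 (0.109), sg2 library 2 (0.0642) or 3 (0.0517), sg3 library 1 (0.0575), and sg2 libraries 1 and 2 together (0.0759). With sg3 the value was -0.21 (adjusted p = 0.0314), and its call was lost without control library 2 (0.0905), 3 (0.0528) or 4 (0.0886) or sg3 library 1 (0.114). PLK2 had 1 to 54 counts per library, 0.394 ± 0.249, 0.432 ± 0.126 and 0.304 ± 0.0902 CPM, and was not tested.

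**Figure D4:**
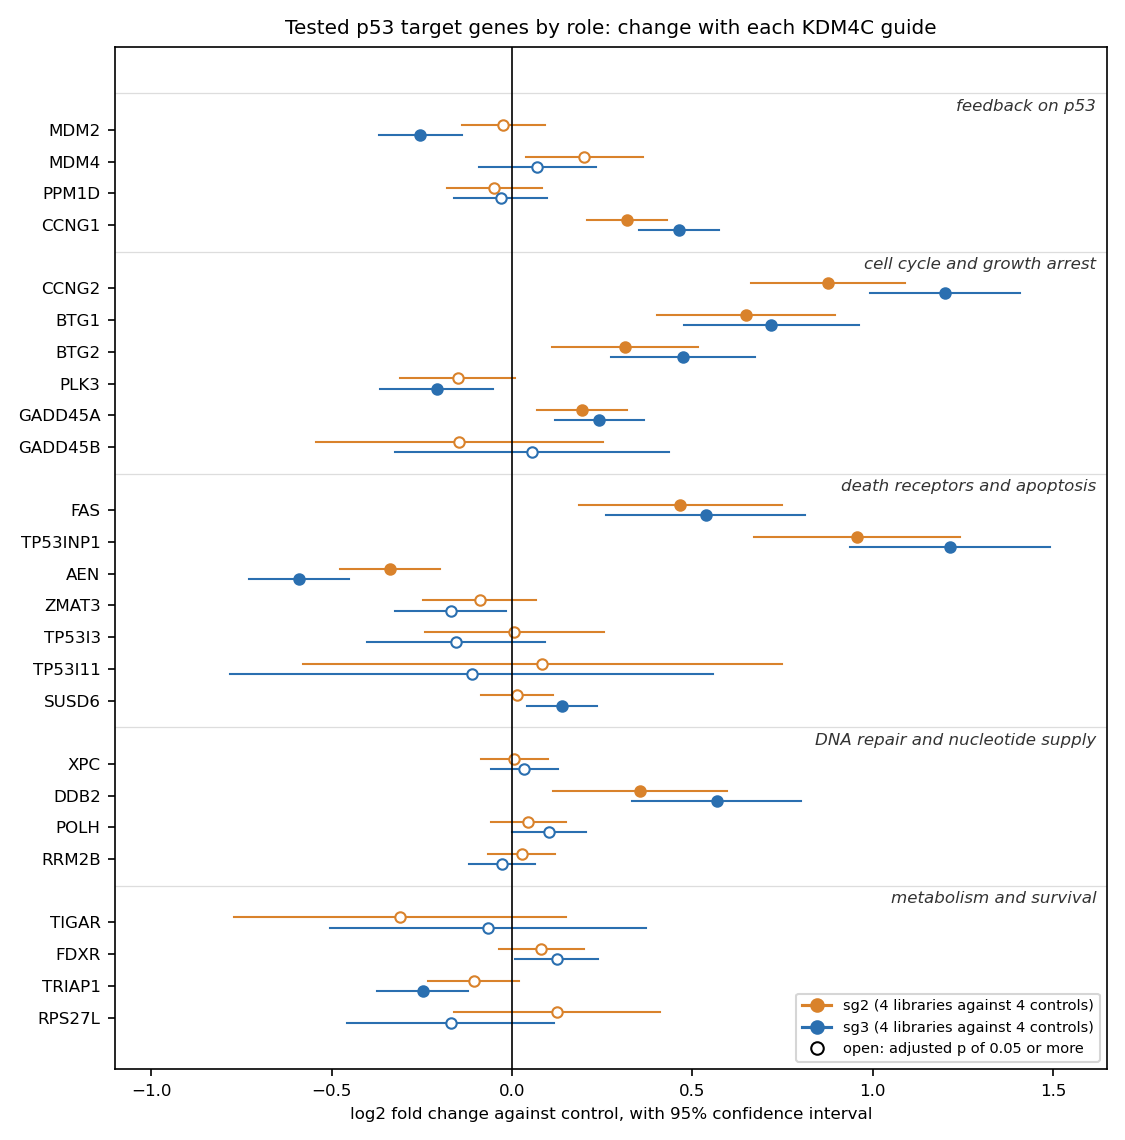
Log2 fold change of each tested member against control (horizontal axis) with its 95% confidence interval, for sg2 and sg3 (4 libraries each against the same 4 controls), grouped by role; filled points have an adjusted p under 0.05. CCNG2 and TP53INP1 lie farthest to the right and AEN farthest to the left of the called members with both guides.

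Of the death receptor and apoptosis genes, 2 rose, 1 fell and 4 were not called, and the other 4 of the 11 were too low to test. The 42.9% called of those tested stood beside 43.9% of all genes. TP53INP1 encodes a stress protein that promotes p53 phosphorylation and autophagy and was the member with the largest rise. It measured 6.22, 5.92, 5.71 and 4.96 CPM in control libraries 1 to 4, 10.3, 8.71, 13.6 and 13.8 CPM with sg2 and 13.9, 14.0, 11.7 and 14.3 CPM with sg3. No knockout library overlapped control, and sg2 libraries 3 and 4 were again above 1 and 2. TP53INP1 rose 2.12-fold (log2 fold change 1.09 ± 0.12, adjusted p = 2.91e-06), with 0.96 for sg2 and 1.21 for sg3 on the log2 scale.

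FAS, the death receptor that starts caspase activation on binding its ligand, was low throughout. It had 3.76, 3.21, 3.96 and 3.08 CPM in control, 4.46, 5.50, 4.09 and 4.69 CPM with sg2 and 4.41, 5.02, 4.83 and 6.04 CPM with sg3. Each knockout library exceeded each control library, some by a small margin, and FAS rose by 0.50 ± 0.11 on the log2 scale (adjusted p = 0.00201). The sg2 value (0.47, adjusted p = 0.0151) lost its call without control library 2 (0.0733), without sg2 library 2 (0.0921), and without sg2 libraries 1 and 2 (0.162). The sg3 value was 0.54 (adjusted p = 0.00328).

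AEN, an exonuclease that digests DNA in apoptosis, moved in the opposite direction. Its levels were 68.9, 69.2, 64.1 and 65.7 CPM in control, 57.5, 57.6, 51.2 and 44.6 CPM with sg2 and 46.3, 45.9, 44.2 and 41.7 CPM with sg3. All 8 knockout libraries lay below all controls, and AEN fell by 0.47 ± 0.06 on the log2 scale (adjusted p = 6.81e-06). The log2 fold change was -0.34 with sg2 (adjusted p = 0.00116) and -0.59 with sg3 (3.81e-06), and AEN was the member called lower with both guides.

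The other tested genes of this role lay close to control. ZMAT3, an RNA-binding zinc finger protein with the closest match to the p53 element, measured 31.0 ± 2.92, 29.1 ± 2.95 and 27.6 ± 0.99 CPM in control, sg2 and sg3 (n = 4 each), with a log2 difference from control of -0.13 (95% interval -0.26 to 0.0029, adjusted p = 0.105). That value was called without control library 3 (adjusted p = 0.0256) or sg2 library 1 (0.0418), and without sg2 libraries 1 and 2 (0.0272). The oxidoreductase gene TP53I3 had 6.05 ± 0.235, 6.19 ± 1.146 and 5.43 ± 0.473 CPM (adjusted p = 0.575), and TP53I11, a gene induced by p53, had 0.702 ± 0.167, 0.779 ± 0.333 and 0.710 ± 0.303 CPM with a 95% interval of -0.56 to 0.53. SUSD6, a membrane protein gene, rose with sg3 (56.5, 53.03, 54.3 and 58.8 CPM in control, 63.2, 58.2, 58.7 and 64.8 CPM with sg3, log2 fold change 0.14 ± 0.05, adjusted p = 0.0216) and overlapped control there. Its sg3 call was lost with no filter on low counts (adjusted p = 0.0537) and without control library 2 (0.0904) or 3 (0.0525) or sg3 library 1 (0.055) or 4 (0.0619).

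TNFRSF10B, which encodes the TRAIL receptor DR5, was below the filter, with 4 to 30 counts per library. It had 0.298, 0.380, 0.233 and 0.376 CPM in control, 0.503, 0.550, 0.498 and 0.313 CPM with sg2 and 0.656, 0.552, 0.717 and 0.648 CPM with sg3. All sg3 libraries lay above all control and sg2 libraries, and sg2 overlapped control. TNFRSF10B had no test in the main fit. The sg3 rise was called in the edgeR fit of sg3 and control only (log2 fold change 0.92, adjusted p = 0.0151). It was also called in fits without 1 library that kept the gene (0.0119 to 0.0321), and these calls enter the counts for such fits. With no filter on low counts it was not called (0.0692). EDA2R, a receptor of the same family, had 0 or 1 count per library, PHLDA3, an inhibitor of AKT, had 0 to 5, and SPATA18, a gene of mitochondrial quality control, had 0 of 277760340 counts over the 12 libraries, which allows up to 0.0108 CPM (counting error only). No direction can be given for these 3.

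In DNA repair and nucleotide supply, DDB2 rose and 3 genes were not called (25% called, against 43.9% of all genes). DDB2 encodes the damage sensor that starts repair of ultraviolet lesions, and had 10.7, 11.5, 9.97 and 13.2 CPM in control, 12.9, 12.2, 16.4 and 17.5 CPM with sg2 and 16.3, 17.3, 15.4 and 18.2 CPM with sg3. The sg3 libraries exceeded all controls, while sg2 libraries 1 and 2 lay below control library 4. DDB2 rose by 0.46 ± 0.10 on the log2 scale (adjusted p = 0.00118), by 0.57 with sg3 (0.000606) and by 0.36 with sg2 (0.0284). The sg2 call was lost without control library 1 (adjusted p = 0.0637), 2 (0.0576) or 3 (0.0744), or sg2 library 3 (0.0831) or 4 (0.108).

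XPC, the partner sensor of DNA lesions, had 48.4 ± 1.32, 48.7 ± 1.80 and 49.6 ± 2.17 CPM in control, sg2 and sg3 (n = 4 each), with a log2 fold change of 0.02 (95% interval -0.06 to 0.10). RRM2B, the p53-inducible subunit of ribonucleotide reductase, had 47.0 ± 2.35, 48.0 ± 0.487 and 46.2 ± 1.58 CPM (95% interval -0.08 to 0.08). POLH, a polymerase that copies across damaged bases, had 35.3 ± 1.18, 36.3 ± 2.10 and 37.8 ± 1.09 CPM, and its 95% interval of -0.02 to 0.16 left room for a small rise. For XPC and RRM2B the interval leaves out changes beyond 0.10 in either direction.

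Of the genes of metabolism and survival, TRIAP1 fell and no gene rose (25% called, against 43.9% of all genes). TRIAP1, a small mitochondrial protein that restrains caspase activation, had 36.1, 33.8, 35.4 and 31.8 CPM in control, 34.1, 32.99, 28.8 and 31.0 CPM with sg2 and 30.1, 27.0, 29.1 and 29.7 CPM with sg3. The sg3 libraries lay below all controls and sg2 overlapped them. The log2 fold change was -0.18 ± 0.05 in the average (adjusted p = 0.01) and -0.25 with sg3 (0.00307), against -0.11 with sg2 (95% interval -0.23 to 0.02, adjusted p = 0.202). The call of the average was lost without control library 1 (adjusted p = 0.0634).

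FDXR, the mitochondrial ferredoxin reductase, had 41.4 ± 1.1504, 44.1 ± 2.73 and 45.0 ± 3.19 CPM (log2 fold change 0.10, adjusted p = 0.092), and was called without sg3 library 4 (0.0413) and without sg2 libraries 1 and 2 (0.0254). TIGAR, which lowers glycolytic flux, had 1.73 ± 0.467, 1.39 ± 0.325 and 1.59 ± 0.122 CPM, with a wide 95% interval of -0.57 to 0.19. RPS27L, a ribosomal protein paralog, had 34.0, 32.8, 33.9 and 30.5 CPM in control, 39.1, 34.7, 31.8 and 37.9 CPM with sg2 and 38.8, 33.1, 25.0 and 19.6 CPM with sg3. Its sg3 libraries spread over both sides of control, and without sg3 library 1 the sg3 value of -0.33 was called (adjusted p = 0.0368). RPS27L has a close paralog, RPS27, with which reads may be shared, so its counts are uncertain.

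Both guides were set against the same 4 control libraries, so their values are given side by side. With sg2, 8 members rose and 1 fell (36% called, against 28.3% of all genes; 14.5% of all genes rose and 13.9% fell). With sg3, 9 rose and 4 fell (52%, against 44.1%; 21.9% rose and 22.2% fell). Both guides called the same 8 members higher and AEN lower, none was called in opposite directions, and MDM2, PLK3, TRIAP1 and SUSD6 were called with sg3 alone. The share of all genes called with both guides was not counted, and shared controls by themselves favour such agreement. It is therefore not a result about the members. Tested directly, sg3 and sg2 differed for 0 of the 25 members by edgeR's test (0.00714% of all genes, 1 gene, KIT). At an unadjusted p under 0.05 there were 7 members, and the share of all genes at that level was not counted. DESeq2 called 1 member (MDM2, 4%, against 0.793% of all genes) and limma-voom 0 (against 0.129%). With no filter on low counts 3 members were called (MDM2, CCNG2 and AEN, 10.3%, against 1.42% of all genes). Without sg2 library 4 also 3 were called (MDM2, BTG2 and AEN, 11.5%, against 1.42% of all genes). The sg3-minus-sg2 log2 difference was -0.23 for MDM2 (adjusted p = 0.128), 0.32 for CCNG2 (0.175) and -0.25 for AEN (0.147).

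Within sg2, libraries 3 and 4 stood above 1 and 2 for CCNG2, BTG1, BTG2, TP53INP1, DDB2 and GADD45A, and below them for AEN. A split of the libraries was not particular to sg2. By their counts, control libraries 1 and 3, and 2 and 4, were closest to each other, as were sg3 libraries 1 and 2, and 3 and 4. KDM4C mRNA was 40.5, 43.0, 49.8 and 55.1 CPM in sg2 libraries 1 to 4. KDM4C protein was not measured in these libraries, and a link between KDM4C and the spread within sg2 was not tested. With sg2 libraries 1 and 2 left out, 14 of 27 members tested were called in the knockout average (51.9%, against 42.8% of all genes in that fit), 10 higher and 4 lower. Libraries 1 and 2 were those in which the members named above changed least, so this count is no separate support for a change. The median of the 25 tested members relative to the control mean was -0.03 to 0.02 on the log2 scale in control libraries, 0.04 to 0.21 with sg2 and 0.02 to 0.08 with sg3.

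**Figure D5:**
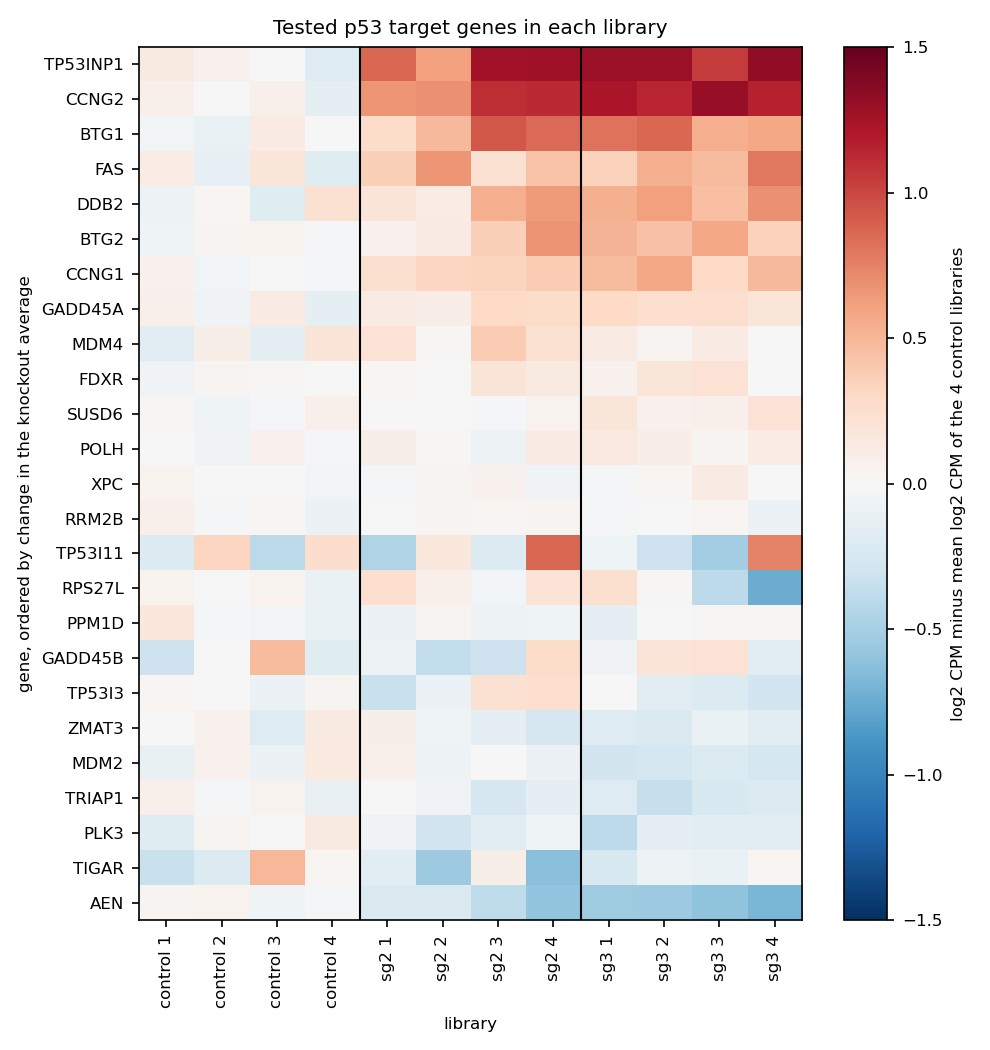
Log2 CPM of the 25 tested members in each of the 12 libraries minus the mean of the 4 control libraries (colour), with genes ordered by change in the knockout average. The upper rows, TP53INP1 to GADD45A, are red in the knockout libraries, and the lowest row, AEN, is blue in all 8.

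In a wider list of 71 other genes listed as induced by p53, 57 were tested, 23 rose (40.4%, against 21.6% of all genes) and 18 fell (31.6%, against 22.3%), with a median of 0.05 on the log2 scale. CDKN1A, the gene of the cyclin-dependent kinase inhibitor p21, had 4.94 ± 0.372, 9.31 ± 1.27 and 9.49 ± 0.999 CPM in control, sg2 and sg3 (n = 4 each) and rose in both guides (log2 fold change 0.91 ± 0.10, adjusted p = 2.7e-06). The growth factor gene GDF15 (1.41), the stress factor gene ATF3 (0.76), the sestrin gene SESN3 (0.73) and the membrane protein gene PERP (0.65) also rose in the average on the log2 scale. The most abundant of the list, the DNA repair gene XRCC5 (871 CPM in control), fell by 0.12.

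In a list of 46 genes of p53 regulation, 43 were tested, of which 2 rose (4.65%, against 21.6% of all genes) and 13 fell (30.2%, against 22.3%), with a median of -0.06 on the log2 scale. The arginine methyltransferase gene PRMT5 fell by 0.36 (adjusted p = 5.56e-06), the checkpoint kinase gene ATR by 0.28, the kinase gene HIPK2 by 0.24, the damage adaptor gene TP53BP1 and the methyltransferase gene SMYD2 by 0.23 each, and the deacetylase gene SIRT1 by 0.20 on the log2 scale. The most abundant was the kinase gene PRKDC, which fell by 0.18. Of 47 genes repressed through p53, p21 and the DREAM complex, all were tested, 4 rose (8.51%, against 21.6% of all genes) and 13 fell (27.7%, against 22.3%), with a median of -0.06, and the 36.2% called was below the 43.9% of all genes. The mitotic ubiquitin conjugase gene UBE2C fell by 0.72 (30.1 ± 2.27, 18.4 ± 0.935 and 18.4 ± 1.49 CPM, n = 4 each), CDC25A by 0.27 and CCNB1 by 0.20, while the mitotic kinase genes BUB1 (0.38) and NEK2 (0.34) and the phosphatase gene CDC25C (0.20) rose. TOP2A, the most abundant at 868 CPM in control, was not called (log2 fold change 0.06, adjusted p = 0.125).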

How the data were processed

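RNA sequencing was analysed for 12 HEL-Cas9 libraries (control, sg2 and sg3, 4 each), grouped by the titles the submitters gave. The authors used Trimmomatic 0.39 for trimming the paired-end reads, STAR 2.7.4a for alignment (genome hg38) and featureCounts 2.0.1 for counting fragments per gene, and the deposited table holds raw counts, not normalized. No strand setting is given for the counting, so a gene may share reads with an antisense neighbour, and reads shared by near-identical copies cannot be assigned to 1 of them. Of 38571 lines, 20 broken ones were left out. Total counts were 10031809 to 78966125 per library, and no replicate pair agreed within sampling noise (reduced chi-square 1.71 to 12.4 over 18 pairs), so each library was counted once. In control, libraries 1 and 3 (2.09) and 2 and 4 (3.78) were closest, and other pairs were at 6.07 to 7.29. In sg2, libraries 1 and 2 (2.89) and 3 and 4 (2.46) were closest, against 3.79 to 7.02. In sg3, libraries 1 and 2 (1.71) and 3 and 4 (3.98) were closest, against 6.27 to 12.4. The 4 libraries of a group may therefore not be independent, and the cause was not tested.

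Tests were run with edgeR 4.0.16 (R 4.3.3): filterByExpr (minimum count 10, minimum total 15), TMM, 1 mean per group over all 12 libraries, and glmQLFTest on 13996 genes with Benjamini-Hochberg adjustment, called at 0.05. The SE was obtained as the absolute log2 fold change over the square root of F. CPM are TMM-scaled, and levels per kilobase divide CPM by the exon length in the table. Log2 values by library used a prior count of 2. Positions are from GENCODE for hg38, and transcription starts from RefSeq. Alternatives were DESeq2 1.42.0, limma-voom (limma 3.58.1), RLE size factors, other filters, a replicate block, fits of fewer groups, and leaving out libraries.

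All 30 members are named, and of each wider list the 6 called genes with the largest change, the most abundant gene, and CDKN1A. Some genes that this rule takes are not reported here. The members and all lists were chosen with earlier results of these data known.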

Additional observations from a re-analysis of the deposited data

Results flagged for a closer look

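Over 75 groups of 4 libraries (25 tested members in 3 groups), 5 (6.67%) held 1 library far from the others, and chance gives about 1 in 20. MDM2 measured 108.62 CPM in sg3 library 3, while the rest of that group lay at 103.3 to 103.8. PPM1D measured 31.9 CPM in sg2 library 2, against 29.2 to 29.6, and 28.1 CPM in sg3 library 1, against 31.0 to 31.5. PLK3 measured 25.4 CPM in sg3 library 1, against 29.6 to 30.2. TP53INP1 measured 11.7 CPM in sg3 library 3, against 13.9 to 14.3.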

How the results depend on the processing

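The number of members called stayed within 1.5 times under every alternative for the knockout average (12, with 11 to 14 over single libraries left out), for sg2 (9, with 6 to 9) and for sg3 (13, with 12 to 14). With single libraries left out, 42.3% to 53.8% of tested members were called in the average, against 34.8% to 43.4% of all genes. The shares were 23.1% to 36% against 21.3% to 29.8% for sg2, and 46.2% to 53.8% against 36.8% to 44% for sg3. Between 24 and 29 members were tested, depending on the fit. For sg3 against sg2, 0 members became 1 with DESeq2 (4%, against 0.793% of all genes) and 3 with no filter on low counts (10.3%, against 1.42%). Over single libraries left out it was 0 to 3 (0% to 11.5%, against 0% to 1.42% of all genes). The replicate numbers did not pair the libraries, since 1 of 12 same-numbered pairs correlated above 0.1 (-0.17 to 0.18), and with a replicate block 12, 9, 13 and 0 members were called. The fit of only the groups compared was not run for the average, which compares all 3.

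Directions turned only for values that were not called. For the knockout average these were TP53I11 with DESeq2 (0.030) and RRM2B with limma-voom (5.05e-04), with a CPM filter (0.0024) and with the replicate block (0.0013). With sg2 they were TP53I3 (limma-voom -0.028, no filter -0.0021) and XPC (no filter -1.22e-04), and with sg3 TIGAR (limma-voom 0.022). Without sg2 libraries 1 and 2, the average turned for GADD45B (0.041), TP53I3 (0.044), TP53I11 (0.14) and RRM2B (0.0045), sg2 for GADD45B (0.022), and sg3 minus sg2 for BTG1 (-0.18), BTG2 (-0.053), GADD45A (-0.041), TP53INP1 (-0.025), ZMAT3 (0.035), DDB2 (-0.023) and FDXR (-0.036).

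Over single libraries left out, log2 fold changes of the average ranged from -0.066 to 0.022 for PPM1D, -0.14 to 0.095 for GADD45B, -0.15 to 0.20 for TP53I11, -0.023 to 0.032 for RRM2B and -0.100 to 0.045 for RPS27L. With sg2 they ranged from -0.056 to 0.023 for MDM2, -0.088 to 0.014 for PPM1D, -0.069 to 0.10 for TP53I3, -0.15 to 0.30 for TP53I11, -0.015 to 0.040 for SUSD6 and -0.0099 to 0.031 for XPC. With sg3 they ranged from -0.058 to 0.029 for PPM1D, -0.036 to 0.20 for GADD45B, -0.39 to 0.10 for TP53I11, -0.050 to 0.0037 for RRM2B and -0.17 to 0.095 for TIGAR. For sg3 minus sg2 they ranged from -0.031 to 0.16 for BTG1, -0.0094 to 0.19 for FAS, -0.48 to 0.046 for TP53I11 and -0.0050 to 0.045 for XPC. The cause of these turns was not tested. Depth limits TNFRSF10B, PLK2, PHLDA3, EDA2R and SPATA18, which were below the filter.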
